A study of Mus musculus with 12 samples.

Results

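The 5 mouse miRNA hairpins described here are mmu-mir-103-1, mmu-mir-103-2, mmu-mir-107, mmu-mir-33 and mmu-mir-122. They were picked by name, with earlier results of these data known, from 1050 miRBase hairpins that had reads in at least 1 of 12 small RNA libraries, and the rule itself uses no measured value. For each hairpin, reads that matched the genome and reads that did not were summed, and levels are given as reads per 1000000 miRNA reads (CPM). The study asked whether a high-fat diet changes small RNAs of sperm, and whether inhibition of AMPK or more angiogenin changes them in a cell line. Mature epididymal sperm came from C57BL6/J males that received a control diet (CD, 16% kcal of fat) or a high-fat diet (HFD) for 7 weeks from 4 weeks of age. The labels give 69% kcal of fat for the HFD, and the methods of the study give a lower share. The age at the start is that of the labels, and a figure legend of the study gives a later one. Each diet had 3 libraries, and each library pooled sperm of 3 mice. TM4, a mouse Sertoli cell line, had 2 libraries per group: non-treated cells (Ctrl), cells given the AMPK inhibitor Compound C (CC, 10 µM for 12 h) and cells that overexpressed the full-length coding sequence of Ang, the gene of angiogenin, from a plasmid (Ang OE). No empty-vector control is among the libraries, so Ctrl served both TM4 comparisons and plasmid transfection cannot be told apart from Ang. Nothing states that the TM4 libraries came from separate cultures, so p-values measure only the spread between these libraries, which may be technical.

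A miRNA is cut from a hairpin precursor into a short strand that guides Argonaute to messenger RNAs, mostly through pairing of the seed, bases 2 to 8 from its 5′ end. miR-103 and miR-107 are known as regulators of insulin sensitivity in liver and adipose tissue, with caveolin-1 as a target, and their hairpins lie in introns of the pantothenate kinase genes, whose enzymes start coenzyme A synthesis. miR-33 lies in an intron of Srebf2, which encodes the sterol-sensing transcription factor SREBP2, and represses the cholesterol exporter ABCA1. miR-122 is the dominant miRNA of hepatocytes and is known for its role in cholesterol and fatty acid metabolism.

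The mature sequences show which reads can be told apart. Of the 5 hairpins, 4 were matched to RefSeq sequences, all but mir-122. Capitals mark the seed, and all strands run 5′ to 3′.
mmu-miR-103-3p (from mir-103-1 and mir-103-2): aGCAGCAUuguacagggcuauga
mmu-miR-107-3p: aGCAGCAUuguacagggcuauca
mmu-miR-103-1-5p: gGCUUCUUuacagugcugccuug
mmu-miR-103-2-5p: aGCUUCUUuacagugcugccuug
mmu-miR-107-5p: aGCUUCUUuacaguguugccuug
mmu-miR-33-5p: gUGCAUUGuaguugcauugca
The main strand of both mir-103 hairpins was identical, so its reads cannot be assigned to either. miR-107-3p differed from it by G22C, with positions counted from the 5′ end. On the passenger side, miR-103-1-5p and miR-103-2-5p differed by G1A, and miR-103-2-5p and miR-107-5p by C16U. Among 1679 mature miRNAs in the RefSeq table, the seed GCAGCAU was found only in miR-103-3p and miR-107-3p, and UGCAUUG only in miR-33-5p. The 6-base run GCAGCA fell within the first 9 bases of 14 mature miRNAs, among them miR-15b-5p and miR-16-5p, which carry it 1 base further from their 5′ end. They are shown to make this shift visible.
mmu-miR-15b-5p: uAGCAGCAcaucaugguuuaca
mmu-miR-16-5p: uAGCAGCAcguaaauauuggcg

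On GRCm38.p6, the build that corresponds to the submitters' mm10, mir-103-1 lay at chr11:35782396-35782481, within Pank3. mir-103-2 lay at chr2:131288052-131288137, within Pank2. mir-107 lay at chr19:34820687-34820773, within Pank1. mir-33 lay at chr15:82198122-82198190, within Srebf2. The GENCODE annotation placed these 4 in introns on the strand of their host gene, whereas mir-122 lay in no other gene of the RefSeq table used.

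Libraries held 31710445 to 64038150 clean reads and 11412945 to 35704399 miRNA reads. In sperm, mir-10b alone took 38.3 to 44.3% of miRNA reads. Library HFD 1 stood apart: the chi-square per degree of freedom over hairpins was 1138 and 1461 against HFD 2 and HFD 3, whereas HFD 2 and HFD 3 gave 285 and the CD pairs 257 to 312. Diet results of the members are therefore also given without HFD 1. Germ cell markers (10 hairpins, such as mir-34c and mir-871) summed to 3704 to 10859 CPM in sperm and to 934 to 2045 CPM in TM4, where mir-34c made up nearly all of the sum and mir-880, mir-883a and mir-463 were at 0. Markers of epididymal epithelium (5 hairpins of the mir-200 family) summed to 8946 to 14327 CPM in sperm and to 1.28 to 2.38 CPM in TM4. Blood markers (6 hairpins) summed to 26065 to 51815 CPM and to 1763 to 2859 CPM. In TM4, mir-486a and mir-486b made up nearly all of the blood sum. There mir-451a, mir-144, mir-223 and mir-142a were each at 1.49 CPM or less. The part of these cell types in the results was not tested. No defining miRNA of Sertoli cells was on the lists, so the TM4 label was not checked. In such bulk samples, fewer cells of a type and less RNA per cell cannot be told apart.

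The family of mir-103 and mir-107 was the most abundant of the members, and its level differed between diets by less than the spread between libraries. mir-103-1 was at 475, 543 and 511 CPM in CD 1 to 3 and at 468, 515 and 548 CPM in HFD 1 to 3. mir-103-2 was at 476, 545 and 513 CPM in CD and at 470, 516 and 549 CPM in HFD. mir-107 was at 132, 173 and 135 CPM in CD and at 130, 163 and 170 CPM in HFD. For all 3 hairpins the libraries of the diets overlapped. Both mir-103 hairpins together gave 1021 ± 68.6 CPM in CD and 1022 ± 79.6 CPM in HFD (SD, n = 3), and mir-107 gave 147 ± 23.3 and 155 ± 21.2 CPM. The exact two-sided permutation test of the family sum gave p = 0.9 (adjusted p = 1 over 5 sums and hairpins), and the smallest p that 3 against 3 libraries allow is 0.1.

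In edgeR's quasi-likelihood test with TMM scaling, the log2 fold change of HFD against CD was -0.10 for mir-103-1 (95% interval -0.48 to 0.27, adjusted p = 0.989). It was -0.10 for mir-103-2 (-0.48 to 0.27) and -0.02 for mir-107 (-0.45 to 0.41), with the same adjusted p. None of 451 hairpins tested was called at an adjusted p under 0.05 (0%), 31 (6.87%) had an unadjusted p under 0.05, and DESeq2 called 8. The sign of these small values turned with the scaling, to 0.0021, 0.0019 and 0.076 with all miRNA reads as the library size. Relative to the median of all hairpins, which was -0.01 with TMM and 0.10 with all miRNA reads, mir-103-1 was at -0.10 under both. Without HFD 1 the values of all 3 turned sign, to 0.050, 0.049 and 0.18 (adjusted p = 0.902, 0.902 and 0.521).

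**Figure D1:**
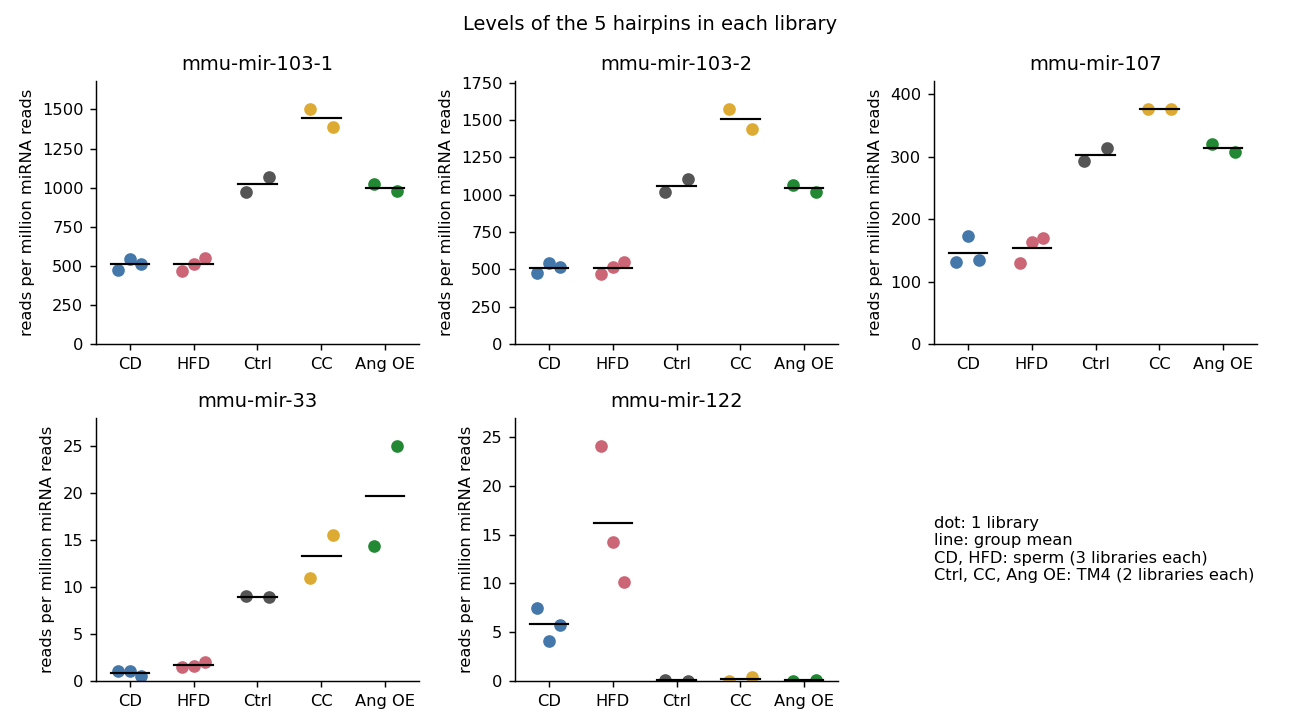
Level of each of the 5 hairpins (CPM, linear axes from 0) in every library, with 1 dot per library and a line at the group mean. The mir-103 and mir-107 dots of CD and HFD overlap, whereas the HFD dots of mir-33 and mir-122 all lie above those of CD.

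In TM4, the family was higher with CC. mir-103-1 was at 975 and 1068 CPM in Ctrl, at 1501 and 1388 CPM in CC and at 1020 and 981 CPM in Ang OE. mir-103-2 was at 1016 and 1105 CPM in Ctrl, at 1572 and 1436 CPM in CC and at 1066 and 1020 CPM in Ang OE. Both CC libraries were above both Ctrl libraries, and Ang OE and Ctrl overlapped. mir-103-1 rose with CC by 0.50 on the log2 scale (SE 0.10, edgeR adjusted p = 0.00714), a ratio of mean CPM of 1.41, and mir-103-2 rose by 0.51 (SE 0.10, adjusted p = 0.00714). Since both share their main strand, these are not separate observations. Of 533 hairpins tested, 22 (4.13%) were called in CC, 12 higher (2.25%) and 10 lower (1.88%), and without CC 1 or without CC 2 none was called. The call for mir-103-1 was lost without Ctrl 1 (log2 0.42, adjusted p = 0.112), without CC 1 (0.41, adjusted p = 0.113) and without CC 2 (0.57, adjusted p = 0.0858), and mir-103-2 lost its call in these 3 fits too. It held in the 9 alternatives that fitted mir-103-1 on its own with all libraries, with log2 fold changes of 0.50 to 0.54.

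mir-107 was at 293 and 314 CPM in Ctrl, at 376 and 376 CPM in CC and at 321 and 308 CPM in Ang OE. Its CC libraries were again above those of Ctrl, with a log2 fold change of 0.31 (SE 0.11) that did not pass the edgeR test (adjusted p = 0.130). It was called by DESeq2 (adjusted p = 0.0154), and over the 16 alternatives that fitted it on its own it passed in 2.

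With Ang OE, the family gave small values that depended on the scaling. mir-107 rose by 0.33 on the log2 scale (SE 0.11, edgeR adjusted p = 0.0235), although its CPM values overlapped with those of Ctrl. With all miRNA reads as the library size it was at 0.05 (adjusted p = 0.751), and it kept the call in 8 of the 16 alternatives that fitted it on its own. mir-103-1 was at 0.24 (adjusted p = 0.0717) and mir-103-2 at 0.25 (adjusted p = 0.0658), or at -0.03 and -0.02 with all miRNA reads. The median of all hairpins moved likewise, from 0.06 to -0.21, so that mir-103-1 lay 0.18 and mir-107 0.27 or 0.26 above it under both. Of 533 hairpins, 204 (38.3%) were called in Ang OE, 129 higher (24.2%) and 75 lower (14.1%), and with all miRNA reads 81 were higher and 139 lower.

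**Figure D2:**
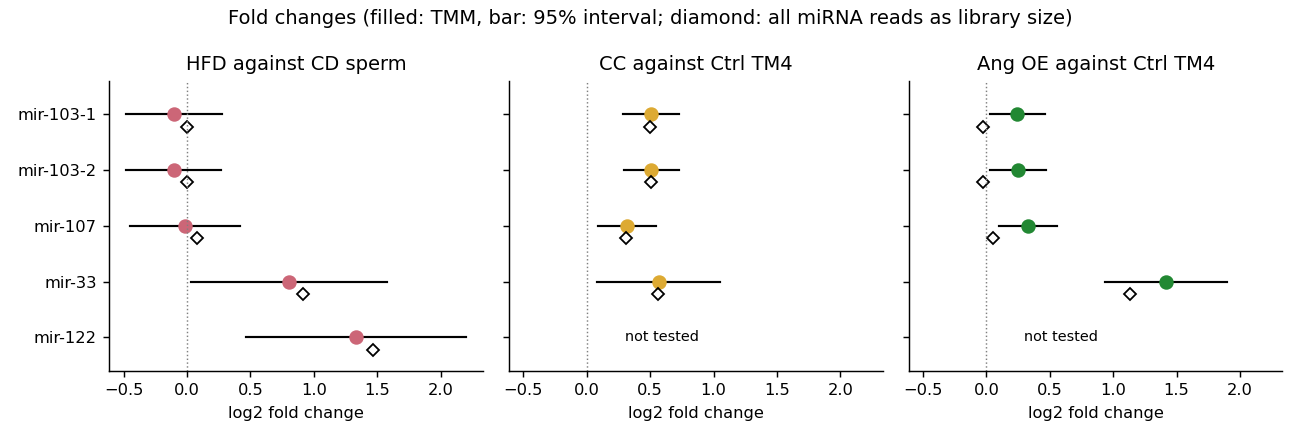
Log2 fold changes of the members in the diet, CC and Ang OE comparisons, where filled dots with bars are edgeR values with TMM scaling and 95% intervals and open diamonds take all miRNA reads as the library size. mir-33 in Ang OE lies at 1.42 or 1.13, whereas mir-103 in Ang OE moves across 0 with the scaling.

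The balance within the family does not depend on the library size. mir-107 made up 11.6 to 13.8% of family reads in sperm and 10.9 to 13.4% in TM4. It was at 12.5 ± 1.11% in CD and 13.1 ± 0.78% in HFD (SD, n = 3; exact permutation p = 0.6, adjusted p = 0.9). HFD minus CD was 0.57 percentage points in all libraries, 1.02 without HFD 1, 1.19 without CD 2, 0.13 without CD 3 and 0.30 without HFD 2. Within TM4, the lowest shares were those of CC, with 10.9 and 11.8%, below 12.8 and 12.6% in Ctrl, and Ang OE stood at 13.3 and 13.4%. These TM4 shares were not tested.

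The reads that tell mir-103-2 from mir-103-1 gave the largest contrast inside the family. The deposited counts hold fractions where a read was divided among hairpins, so the difference between both hairpins comes from reads that were not divided evenly between them. mir-103-2 exceeded mir-103-1 in 12 of 12 libraries. In sperm the excess was 8 to 29 reads, or 0.0602 to 0.213% of mir-103 reads, whereas in TM4 it was 1155 to 2152 reads, or 1.71 to 2.30%. Sperm and TM4 did not overlap, while the diets did (1.47 ± 0.82 CPM in CD and 1.39 ± 0.44 CPM in HFD, SD, n = 3, exact permutation p = 0.9, adjusted p = 0.9), and without HFD 1 the HFD mean was 1.22 CPM. In CC the excess was 70.7 and 48.6 CPM, above 41.0 and 37.1 CPM in Ctrl, but as a share of mir-103 reads CC and Ctrl overlapped. Read sequences were not analysed here, so which strand gave the excess was not tested.

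**Figure D3:**
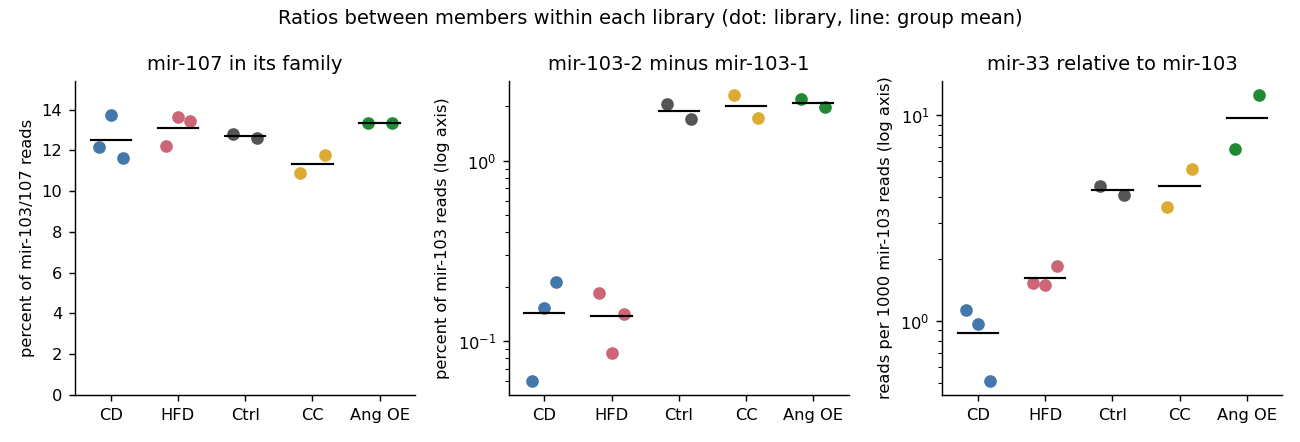
Ratios within each library (1 dot per library, line at the group mean): mir-107 as a percent of family reads on a linear axis, mir-103-2 minus mir-103-1 as a percent of mir-103 reads on a log axis, and mir-33 reads per 1000 mir-103 reads on a log axis. The excess of mir-103-2 is at most 0.213% in sperm and at least 1.71% in TM4.

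mir-33 was scarce in sperm and more abundant in TM4. CD 1 to 3 held 15, 12 and 7 reads, and HFD 1 to 3 held 20, 19 and 30 reads. In CPM these were 1.07, 1.05 and 0.53 in CD and 1.43, 1.53 and 2.02 in HFD. All HFD libraries were above all CD libraries, with means of 0.88 ± 0.31 and 1.66 ± 0.32 CPM (SD, n = 3). The exact Poisson 95% intervals (counting error only) of CD 1, at 0.60 to 1.77 CPM, and HFD 1, at 0.88 to 2.21 CPM, overlapped, as did 8 of the 9 pairs of a CD and an HFD library. Only those of CD 3, at 0.21 to 1.08 CPM, and HFD 3, at 1.37 to 2.89 CPM, did not. The log2 fold change was 0.80 (SE 0.34), which did not pass the edgeR test (unadjusted p = 0.0429, adjusted p = 0.663). Of all 451 hairpins tested, 28 (6.21%) had diets that did not overlap. The exact permutation test gave p = 0.1, the smallest it can give (adjusted p = 0.25), and without HFD 1 the value was 0.99 (edgeR adjusted p = 0.219).

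In TM4, mir-33 was at 9.06 and 8.88 CPM in Ctrl (255 and 317 reads), at 11.0 and 15.6 CPM in CC (334 and 430 reads) and at 14.3 and 25.0 CPM in Ang OE (463 and 843 reads). Ctrl was lowest in both comparisons, and CC and Ang OE overlapped. mir-33 rose with Ang OE by 1.42 on the log2 scale (SE 0.23, edgeR adjusted p = 0.000108), a ratio of mean CPM of 2.19. The call held in 17 of 17 alternatives, with 1.13 on all miRNA reads. Ang OE 2 was the higher of both libraries: without it the value was 0.89, and without Ang OE 1 it was 1.71. With CC the log2 fold change was 0.57 (SE 0.23), which did not pass (adjusted p = 0.199) except with no filter on low counts (adjusted p = 0.0139) and with the replicate number as a block (adjusted p = 0.0150). Without CC 1 the log2 fold change was 0.77, and without CC 2 it was 0.31. Per 1000 mir-103 reads, mir-33 stood at 4.55 and 4.09 in Ctrl, at 3.57 and 5.51 in CC and at 6.86 and 12.5 in Ang OE, so that on this ratio CC overlapped with Ctrl and Ang OE did not.

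Among the members, mir-122 had the largest ratio between diets and between sperm and TM4. CD 1 to 3 held 105, 47 and 77 reads, or 7.51, 4.12 and 5.78 CPM. HFD 1 to 3 held 336, 176 and 150 reads, or 24.1, 14.2 and 10.1 CPM. The lowest HFD value was above the highest CD value, and 28 of all 451 hairpins tested (6.21%) had diets that did not overlap. For mir-122, HFD 1, the library that stood apart, was the highest. Means were 5.80 ± 1.70 CPM in CD and 16.1 ± 7.18 CPM in HFD (SD, n = 3), a ratio of 2.78. The log2 fold change was 1.33 (SE 0.38, 95% interval 0.46 to 2.20), which did not pass the edgeR test (unadjusted p = 0.00719, adjusted p = 0.399), whereas DESeq2 gave 1.35 and an adjusted p = 0.0391. The exact permutation test again gave p = 0.1 (adjusted p = 0.25). Without HFD 1 the log2 fold change was 1.03 (edgeR adjusted p = 0.217), and over the 15 alternatives it ranged from 1.03 to 1.69, with the DESeq2 fit alone past the threshold.

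The marker lists give the other cell types in the sperm libraries. The liver and gut list (mir-192, mir-194-1 and mir-194-2) summed to 2605, 2213 and 1592 CPM in CD and to 1826, 2485 and 3609 CPM in HFD, so the diets overlapped and HFD 1, highest in mir-122, was lowest of HFD in this list. Blood markers summed to 31062, 26844 and 35002 CPM in CD and to 51815, 36881 and 26065 CPM in HFD. HFD 1 was thus the highest and HFD 3 the lowest HFD library in mir-122 and in the blood list. HFD 3 was above all CD libraries in mir-122 and below them in the blood list. Most of that sum came from mir-486a and mir-486b. The other blood markers were named here after their values were seen. mir-451a was at 1155, 1583 and 1934 CPM in CD and at 2420, 2151 and 1852 CPM in HFD. mir-144 was at 101, 149 and 183 CPM and at 150, 267 and 240 CPM. mir-223 was at 29.3, 32.6 and 28.2 CPM and at 40.6, 29.7 and 34.1 CPM. The diets overlapped in these and in both mir-486 hairpins, and HFD 3 was above all CD libraries in mir-144 and mir-223. mmu-mir-142a of leukocytes was at 521, 575 and 484 CPM in CD and at 1179, 688 and 792 CPM in HFD. Its HFD libraries were all above those of CD, as in mir-122 and among the 28 of 451 hairpins (6.21%) without overlap. The log2 fold change of mir-142a was 0.63 (SE 0.21, unadjusted p = 0.0135, edgeR adjusted p = 0.401). Markers of epididymal epithelium summed to 9281, 10573 and 9325 CPM in CD and to 8946, 11272 and 14327 CPM in HFD, and germ cell markers to 3704, 10859 and 5811 CPM and to 5402, 3718 and 3928 CPM. At an unadjusted p under 0.05 stood 1 of 6 blood markers (mir-142a) and 1 of 10 germ cell markers, beside 6.87% of all hairpins, and none of the epididymal or liver and gut markers. The part of these cell types in the mir-122 values was not tested.

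**Figure D4:**
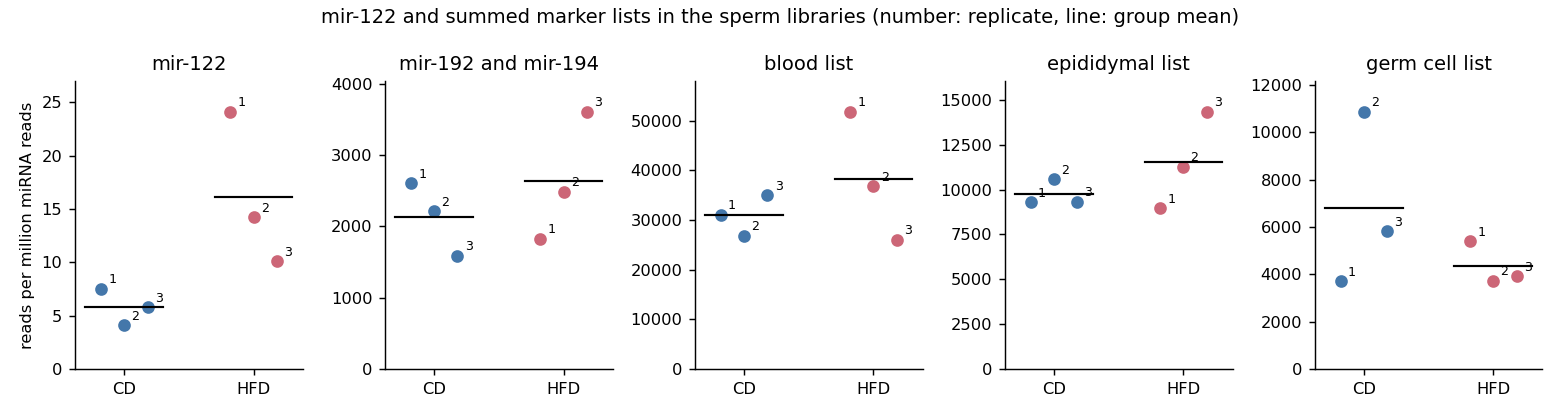
mir-122 and the summed levels of 4 marker lists in the 6 sperm libraries (CPM, linear axes from 0), with the replicate number beside each dot and a line at the diet mean. Only in the mir-122 panel do the diets not overlap.

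In TM4, mir-122 was at the limit of detection. Ctrl held 2 and 1 reads, CC held 0 and 10, and Ang OE held 0 and 3. At a count of 0, the exact Poisson 95% interval reached 0.121 CPM in CC 1 and 0.114 CPM in Ang OE 1 (counting error only). mir-122 failed the filter on low counts in the CC and Ang OE comparisons and was not tested there. In CD against Ctrl it passed only through the CD libraries, so the ratio of reads is given in place of a fitted value. The 229 reads of CD against 3 of Ctrl gave a ratio of CPM of 126, with a 95% counting interval of 42.5 to 615. Over all sperm and all TM4 libraries, 891 against 16 reads gave a ratio of 131 (80.3 to 230). For each mir-33 read there were 3.92 to 16.8 mir-122 reads in sperm and at most 0.0233 in TM4.

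Set against Ctrl TM4, CD sperm held less mir-33 under every scaling tried. The log2 fold change was -2.01 (SE 0.31, edgeR adjusted p = 0.000309) with TMM and -3.34 with all miRNA reads, and it was below the median of all hairpins by a similar amount (-1.87 and -1.87). Per 1000 mir-103 reads, mir-33 was at 0.51 to 1.85 in the 6 sperm libraries and at 3.57 to 12.5 in the 6 TM4 libraries. Of 590 hairpins tested, 455 (77.1%) were called, 240 higher (40.7%) and 215 lower (36.4%) in sperm, and with all miRNA reads 194 were higher and 342 lower.

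For mir-103 and mir-107, CD sperm against Ctrl TM4 gave no direction that held. In CPM, both mir-103 hairpins together were 2.04-fold and mir-107 was 2.07-fold higher in Ctrl. The log2 fold changes were 0.33, 0.28 and 0.28 for mir-103-1, mir-103-2 and mir-107 with TMM, and -1.003, -1.05 and -1.05 with all miRNA reads. The median of all hairpins moved from -0.13 to -1.47, and relative to it the 3 hairpins lay 0.47, 0.42 and 0.41 higher with TMM and 0.47, 0.42 and 0.43 higher with all miRNA reads. Tissue, culture and preparation cannot be told apart in this comparison.

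Ordered by mean CPM, mir-103 was highest in CC, followed by Ctrl, Ang OE, HFD and CD. Neighbours in this order overlapped for Ctrl and Ang OE and for HFD and CD, and were apart for the others. This order holds for CPM alone. With TMM scaling, mir-103-1 was 0.24 higher on the log2 scale in Ang OE than in Ctrl. On the same scale it was 0.33 higher in CD than in Ctrl. mir-33 was highest in Ang OE, followed by CC, Ctrl, HFD and CD, and only Ang OE and CC overlapped. mir-122 ran from HFD to CD and then to the TM4 groups, which overlapped. Among 1050 hairpins ranked by mean CPM, mir-103-2 ranked 72 in CD and 60 in CC, mir-33 ranked 429 in CD and 191 in Ang OE, and mir-122 ranked 218 in HFD and 687 in Ctrl.

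Other miRNAs known in lipid, insulin and adipocyte biology were read from 3 lists of 48 hairpins in all. Between diets 43 of them could be tested and none was called, beside 0% of all hairpins. With CC 39 were tested and none was called, beside 4.13% of all hairpins. With Ang OE, 18 of 39 rose and 3 fell, beside 24.2% and 14.1% of all hairpins. The insulin and glucose list had 11 of 15 tested hairpins higher and 0 lower (median log2 1.15, against 0.06 over all hairpins). With all miRNA reads 8 were higher and 2 lower, beside 81 and 139 of all 533 hairpins. These 11 include mir-9-1, mir-9-2 and mir-9-3, as well as pairs of mir-29b and let-7a hairpins, which can share reads and so are not separate observations. In the same comparison the germ cell list summed to 1050 and 1017 CPM in Ctrl and to 2045 and 1932 CPM in Ang OE, nearly all of it mir-34c, which was at 980 and 940 CPM in Ctrl and at 1956 and 1834 CPM in Ang OE. Some germ cell markers passed the filter on low counts only through treated libraries, so no count over that list is given. The muscle list, mostly mir-143, summed to 55567 and 49715 CPM in Ctrl and to 94556 and 129039 CPM in Ang OE. The liver and gut list summed to 457 and 507 CPM in Ctrl and to 832 and 693 CPM in Ang OE. In the other direction, the blood list summed to 2859 and 2739 CPM in Ctrl and to 1785 and 1763 CPM in Ang OE. The part of these cell types in the values of the insulin and glucose list was not tested. In the insulin and glucose list, mir-143, which is also on the muscle list, rose from 51449 to 110497 CPM (log2 1.38, SE 0.16) and mir-126a, known from endothelium, from 105 to 206 CPM (log2 1.25, SE 0.13). The cholesterol and lipid list had 3 of 11 higher and 0 lower, beside 24.2% and 14.1% of all hairpins. With all miRNA reads 3 were higher and 4 lower, beside 81 and 139 of all 533 hairpins. The 3 called higher with TMM were mir-96, mir-148a and mir-27b. mir-96 rose by 1.43 on the log2 scale to 238 CPM. mir-148a, which targets the LDL receptor, rose from 10982 to 20358 CPM, and mir-27b rose from 4647 to 7763 CPM. The adipocyte list had 4 of 13 higher and 3 lower, beside 24.2% and 14.1% of all hairpins. The 4 include mir-196a-1 and mir-196a-2, which can share reads and so are not separate observations. On this list, mir-193b, known from brown fat, fell from 1446 to 625 CPM (log2 -0.94, SE 0.12). Its mir-222 fell from 3469 to 1880 CPM (log2 -0.61, SE 0.10). With all miRNA reads 2 of the list were higher and 6 lower, beside 81 and 139 of all 533 hairpins.

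In CD sperm against Ctrl TM4, some hairpins of the 3 lists passed the filter on low counts only through CD, so no count over the lists is given. Among hairpins of the adipocyte list, mir-221 was at 253 CPM in CD and 5230 CPM in Ctrl, and mir-155 at 9.91 and 1265 CPM. In the other direction, mir-375 of the insulin list, known from pancreatic islets, was at 5862 CPM in CD and 0.48 CPM in Ctrl.

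The related-seed list held 8 hairpins of the mir-15, mir-16, mir-195, mir-322, mir-497 and mir-503 group. In mir-503 the run GCAGCA is not complete, as its mature strand has the seed AGCAGCG. Of the 8, all tested, none was called between diets or with CC, beside 0% and 4.13% of all hairpins. With Ang OE, mir-15b fell from 2163 to 889 CPM (log2 -1.01, SE 0.11) and mir-15a rose from 219 to 271 CPM (log2 0.58, SE 0.12). In all, 2 of the 8 were higher and 1 was lower, beside 24.2% and 14.1% of all hairpins, and with all miRNA reads 1 was higher and 5 were lower, beside 81 and 139 of 533. In CD sperm 6 of 8 were lower than in Ctrl TM4 and 1 was higher, beside 36.4% and 40.7% of all hairpins, and with all miRNA reads 7 of 8 were lower, beside 342 of 590. mir-15b was at 242 CPM in CD.

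Likeness was measured over the 5 group means of log2(CPM + 1), centred on their own mean, among 260 hairpins with at least 10 CPM on average. mir-182 was nearest to mir-103 (root mean square difference 0.09) and to mir-107 (0.08), with 21944 CPM in CD, 46298 CPM in Ctrl and 57571 CPM in CC. mir-574 came next for both, and mir-582 and let-7d followed for mir-103 and mir-107. mir-101b was nearest to mir-33 (0.20), with 137 CPM in CD and 1410 CPM in Ang OE, followed by mir-218-1 and mir-218-2. For mir-122 the nearest were mir-187 (0.34), with 42.4 CPM in CD and 3.48 CPM in Ctrl, and mir-9-1 and mir-9-2, which were further away than the neighbours of the other members.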

How the data were processed

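Small RNA of 6 sperm and 6 TM4 libraries was sequenced. Per the labels and the methods of the study, the authors checked reads with FastQC (0.12.0), trimmed them with Trimmomatic (0.40), and annotated them with SPORTS against mm10 and miRBase. They deposited estimated counts per hairpin, in which a read that matched several hairpins was divided among them: in 8 of 12 libraries the hairpins of mir-103 and mir-107 all carried fractions of a read, whereas mir-33 and mir-122 held whole reads in 12. The study adjusted a batch of the cell lines that the labels do not name.

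Here, reads with and without a genome match were added per hairpin and rounded for the tests. No read without a genome match named a member, so that readout was void. The tests took hairpins with 10 or more reads in 3 or more libraries (sperm) or 2 or more (other fits), ran in edgeR 4.0.16 (quasi-likelihood, TMM, R 4.3.3), and called hairpins at a Benjamini-Hochberg adjusted p under 0.05 over all hairpins tested. The 6 TM4 libraries shared one fit. The scripts were tested on simulated data. DESeq2 1.42.0, ComBat-seq (sva 3.50.0), other library sizes, filters, added hairpins, a replicate block and left-out libraries were alternatives. CPM takes all miRNA reads of a library as its total, with exact permutation tests (scipy 1.17.1). With 11412945 to 35704399 miRNA reads, 3 reads equal at most 0.263 CPM. Poisson intervals, intervals of read ratios and floors cover counting error only, whereas edgeR intervals include the spread between libraries.

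All members were named. From each list at most 4 hairpins per comparison could be named: those called with the smallest p whose groups did not overlap. Hairpins named for their levels in the marker lists or for shared reads were exceptions. Among these were the blood markers of the diet comparison, of which none was called. Likeness named the 3 nearest hairpins, and the members and lists were chosen with earlier results of these data known. The metabolic, related-seed and marker lists came from general knowledge of these miRNAs. The muscle list (6 hairpins, mostly mir-143) summed to 30652 to 56169 CPM in sperm and 49715 to 129039 CPM in TM4. Sequences and positions are from RefSeq, GRCm38.p6.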

Additional observations from a re-analysis of the deposited data

How the results depend on the processing

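With 2 or 3 libraries per group, leaving out 1 library, another tool, a pairing or the library size changed calls or values. In Ang OE, 129 hairpins were higher and 75 lower with TMM, and 81 and 139 with all miRNA reads as library size. DESeq2 called 8 hairpins between diets (1 higher, 7 lower), and edgeR 0 with 31 at an unadjusted p under 0.05. With CC the 22 calls became 35 with the replicate number as a block and 39 with ComBat-seq by replicate number, and 0 to 26 where 1 library was left out. Same-numbered libraries correlated at -0.35, -0.24 and 0.07 in sperm and at -0.02, -0.10 and 0.16 between TM4 groups, so the numbers were not taken to pair them. The block gave 0 calls between diets and 222 in Ang OE, where edgeR without it gave 204.

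Between diets, mir-103-1, mir-103-2 and mir-107 turned sign from -0.10, -0.10 and -0.02 to 0.0021, 0.0019 and 0.076 with all miRNA reads as library size and to 0.091, 0.091 and 0.17 with clean reads without rRNA. mir-107 was also at 0.0064 with DESeq2, 0.015 with no filter and 0.036 with at least 100 reads. With 1 library left out, they ranged from -0.17 to 0.050, -0.17 to 0.049 and -0.12 to 0.18. In Ang OE, mir-103-1 and mir-103-2 were at -0.030 and -0.024 with all miRNA reads. In CD against Ctrl, mir-103-1, mir-103-2 and mir-107 were at -1.003, -1.05 and -1.05 with all miRNA reads, at -1.24, -1.29 and -1.29 with clean reads, at -0.32, -0.37 and -0.37 with no filter and at -0.067, -0.12 and -0.12 with all 12 libraries in 1 model. With 1 library left out they ranged from -0.63 to 0.28, -0.67 to 0.23 and -0.67 to 0.29. The cause was not tested. The log2 ratio of mean CPM, HFD over CD, with 1 library left out ranged from -0.045 to 0.076 for the family, from -0.052 to 0.060 for both mir-103 hairpins and from -0.000384 to 0.21 for mir-107. mir-33 and mir-122 kept their direction between diets in all 14 and all 15 alternatives. For both, all HFD libraries were above all CD libraries in CPM. Leaving out 1 library could thus hardly turn the direction, so its holding adds no separate support.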
